A study of Mus musculus with 11 samples.

Results

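The Ttc genes encode proteins named for the tetratricopeptide repeat (TPR). They were chosen here by name, as every gene of the count table whose GENCODE vM21 symbol is Ttc followed by a digit. Ttc18, Ttc21b and Ttc25 were left out. This gave 40 genes of 23074 in the table, of which 22293 had a GENCODE name. The study sequenced testis RNA at postnatal day 21 from 5 wild type mice, which are Rfx2+/+, and from 6 Rfx2-/- mice, all on a mixed C57BL/6, 129/Sv and FVB/N background. In Rfx2-/- mice exon 7 of Rfx2, which encodes most of the DNA-binding domain of this transcription factor, had been flanked by loxP sites and removed in the germline with a ubiquitously expressed ACTB-cre, so every cell of the animal carried the deletion and not only germ cells. The samples were whole decapsulated testes from separate mice, littermates of the same age where possible. In such bulk RNA, fewer cells of a type and less RNA per cell cannot be told apart.

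A TPR is a short pair of antiparallel helices, and repeats stacked in tandem form a curved scaffold that holds partner proteins. Several TPR proteins are subunits of the trains that carry cargo along cilia and flagella (intraflagellar transport, IFT) or of the BBSome, a coat-like complex that moves membrane proteins in cilia. Others are cochaperones, ubiquitin ligases or subunits of RNA decay and membrane complexes, and many have hardly been described. RFX2 binds a palindromic motif called the X-box, which is frequent at the promoters of genes for cilia, and spermatids build a modified cilium as the sperm tail. The 40 genes were placed in 4 roles: cilium and flagellum (10 genes), chaperone, ubiquitin and transcription cofactors (8), RNA, membrane and mitochondrial complexes (6), and little described (16).

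Promoters came first, because RFX2 binds at some of them. A ChIP-Seq assay of the same study used dissociated testis germ cells of wild type mice at postnatal day 21. It marks 9 of the 40 genes as having RFX2 at the promoter. They are Ttc8, Ttc12, Ttc23l, Ttc26, Ttc30a1, Ttc30a2, Ttc30b, Ttc39d and Ttc41. Peaks in introns, exons or between genes, which the study also found, are not part of this mark. The share of all genes that carry the mark was not computed here, so 9 of 40 is a count alone. RefSeq promoters of GRCm38.p6, which run from 250 bases before a start to 50 after it, were present for 34 of the 40. They were searched for the X-box written as GTTNCC, a spacer of any 2 letters and GGNAAC. This pattern is its own reverse complement, so a single pass reads both strands, and its score is the number of the 10 fixed letters matched. A Ttc gene was counted once, by the best of its entries (39 entries for the 34 genes), whereas the shares over all promoters count single entries. A full match of 10 was found in 2 of the 34 genes, Ttc26 and Ttc30a2, against 0.451% of all 32851 promoters. Matches of at least 9 were found in 4 genes against 2.56% of all promoters, the others being Ttc23l and Ttc29. Of these 4 genes Ttc29 alone lacked the ChIP-Seq mark. The 4 windows are shown in capitals, each on the strand of its gene, to show how near they come to the full motif.
Ttc26: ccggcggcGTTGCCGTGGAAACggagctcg
Ttc30a2: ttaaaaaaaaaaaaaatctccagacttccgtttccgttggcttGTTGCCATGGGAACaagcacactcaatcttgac
Ttc29: gcccctctGTTTCCATGGAGACgctttcag
Ttc23l: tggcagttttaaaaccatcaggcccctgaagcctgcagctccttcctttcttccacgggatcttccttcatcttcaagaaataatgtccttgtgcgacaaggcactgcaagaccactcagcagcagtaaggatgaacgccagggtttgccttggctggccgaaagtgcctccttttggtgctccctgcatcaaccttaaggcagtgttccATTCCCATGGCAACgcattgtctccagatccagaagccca
The stretch of Ttc26 lies at chr6:38381483-38381512 on the plus strand, with its window inside the first exon of a GENCODE transcript and centred 26 bases before the RefSeq start. That of Ttc30a2, chr2:75978171-75978246 on the minus strand, is the whole gap between Ttc30a2 and its neighbour Ttc30a1, and its window is centred 17 bases before the start. For Ttc29 it is chr8:78213293-78213322 on the plus strand, again with the window in an annotated first exon, centred 34 bases before the start. For Ttc23l it is chr15:10558669-10558918 on the minus strand, upstream of the annotated exons, with the window centred 33 bases before the start. All 4 windows thus lay within a short distance of the start, on its upstream side. At a match of at least 8, 11 of 34 genes held a window, against 13.9% of all promoters. These were 3 of the 8 ChIP-Seq targets with a promoter entry and 8 of the 26 other genes. The other 5 targets held no window at this limit within the bases searched. The study took a wider region around the start as the promoter for its mark, so a motif outside the searched bases would be missed here. Such a match in letters is a description and does not show binding.

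**Figure D1:**
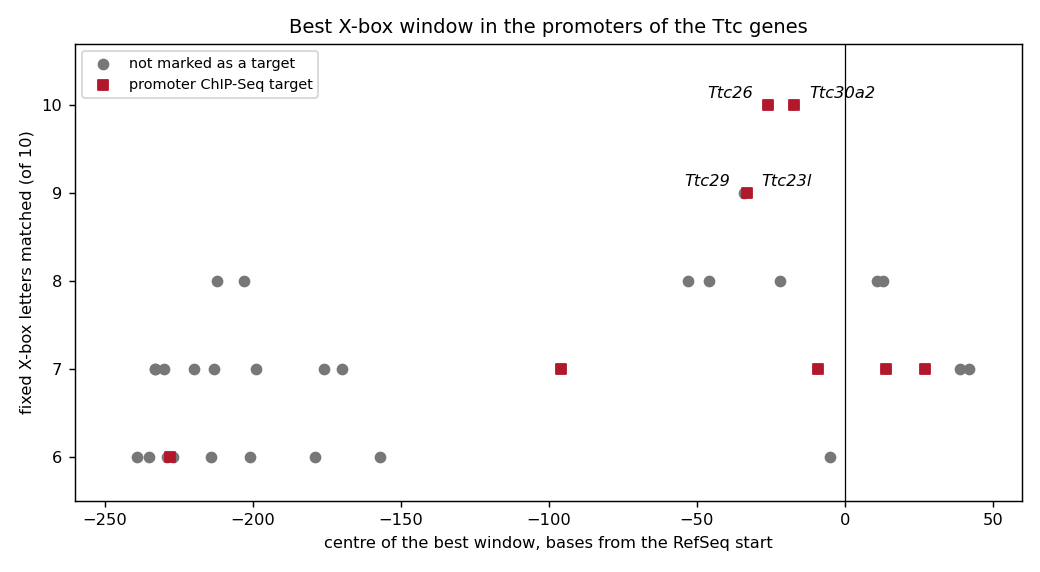
Number of fixed X-box letters matched, of 10, by the best window of each Ttc promoter, against the distance of its centre in bases from the RefSeq start (vertical line). Squares are promoter ChIP-Seq targets, and circles are the other genes. The 4 best windows, of Ttc26, Ttc30a2, Ttc29 and Ttc23l, lie between 34 and 17 bases before the start.

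Libraries held 26925157 to 29769483 counts in wild type and 22232097 to 27116903 counts in Rfx2-/- testis. Values are CPM, counts scaled to library size with edgeR's TMM factors and multiplied up to a common total, or RPKM, the same per kilobase of merged exons, where genes are compared with each other. The lowest level taken as detected, 3 counts, is 0.0852 to 0.139 CPM and allows for counting error only. Germ cell markers differed between the mice. The summed CPM of 13 round spermatid markers ran from 12.7 to 582 in wild type and from 39.3 to 769 in Rfx2-/- testis. That of 11 pachytene spermatocyte markers ran from 3581 to 8118 and from 7411 to 9656. Over the 78 tested markers of 10 cell types edgeR called 1 gene lower, the Leydig cell gene Hsd3b1, and 0 higher, DESeq2 5 lower and 1 higher, and voom 3 lower and 1 higher. At an unadjusted p under 0.05, edgeR had 6 of the 11 pachytene markers higher, and 8 of 10 Sertoli cell, 5 of 7 macrophage and 4 of 5 endothelial cell markers lower, against 18.1% of all genes higher and 23.7% lower. There were also 4 of 9 spermatogonium and 3 of 7 Leydig cell markers lower and 3 of 9 early spermatocyte markers higher. The part of these differences in the results was not tested. Rfx2 itself, counted over all exons, had 191 to 472 CPM in wild type and 282 to 324 CPM in Rfx2-/- testis, a count that does not show whether exon 7 is present.

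Of the 40 Ttc genes, 37 passed edgeR's filter on low counts. The other 3, Ttc22, Ttc24 and Ttc9b, had at most 10, 25 and 6 counts in any mouse and were not tested. In wild type testis the highest levels were those of Ttc4 (77.5 ± 28.0 RPKM, SD, n = 5), a cochaperone of Hsp90. It was followed by the sperm flagellum gene Ttc29 (41.0 ± 19.9 RPKM), by Ttc39d (34.8 ± 19.5 RPKM), by Ttc1 (28.0 ± 5.19 RPKM), whose product binds heat shock proteins, and by Ttc27 (27.2 ± 2.22 RPKM). The ranges of Ttc4 and Ttc29 overlapped, and below Ttc4 neighbours in this order differed by less than the larger of their SDs. In Rfx2-/- testis Ttc4 was again the highest, at 114 ± 11.4 RPKM (SD, n = 6), and Ttc39d the second, at 48.1 ± 11.02 RPKM, while Ttc29 had rank 7 at 25.8 ± 2.38 RPKM. Ttc6 went from rank 15 of 40 in wild type to rank 37, just above the 3 untested genes.

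**Figure D2:**
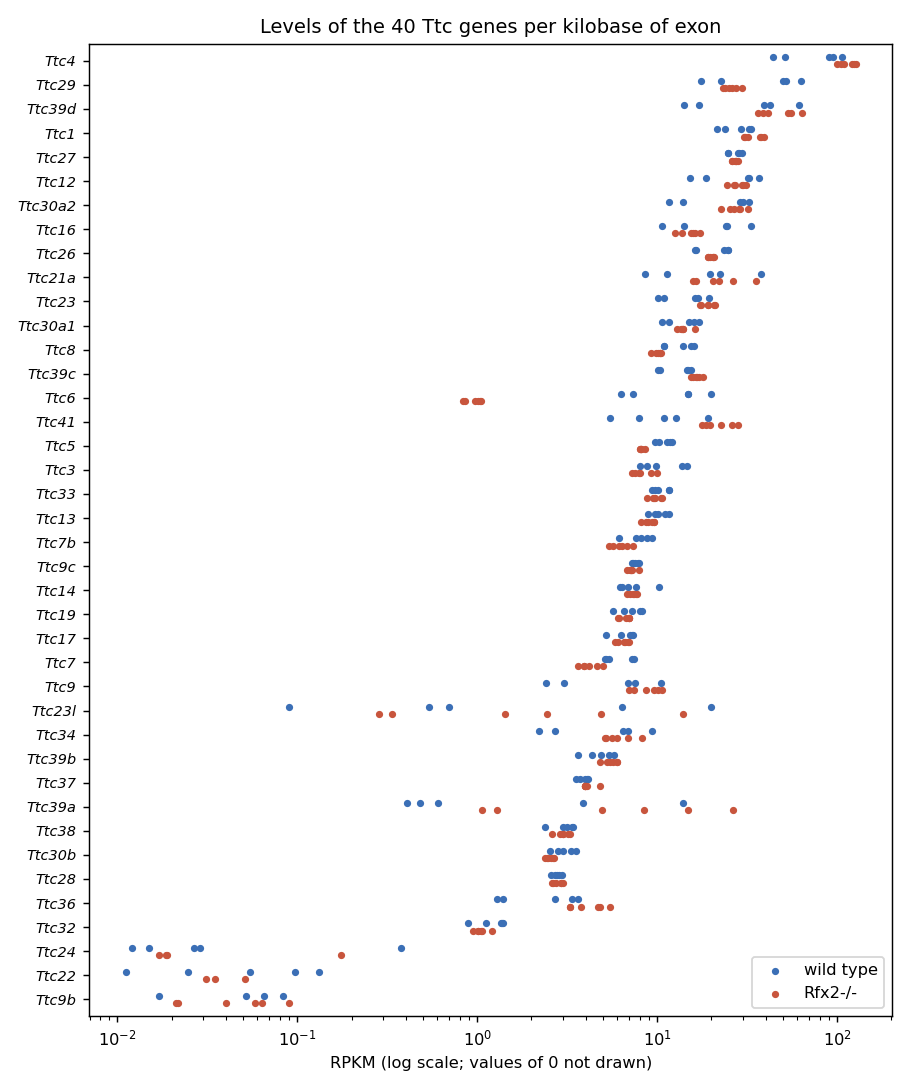
RPKM (log scale) of the 40 Ttc genes in each mouse, ordered by the wild type mean, with wild type in blue and Rfx2-/- in red. Most genes lie between 1 and 100 RPKM with overlapping genotypes. The Rfx2-/- values of Ttc6 lie apart from all wild type values, and Ttc22, Ttc24 and Ttc9b are near 0.

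Genotypes were compared with edgeR's quasi-likelihood test over all 15745 genes that passed the filter, and a gene was called where p, after Benjamini-Hochberg adjustment, was no more than 0.01. Among the Ttc genes 2 were called lower in Rfx2-/- testis, Ttc6 and Ttc5, where 1.94% of all genes tested were called lower. Of these, Ttc6 alone changed by more than 2-fold (1.04% of all genes). None was called higher (0.73% of all genes), and none higher by more than 2-fold (0.216%). At an unadjusted p under 0.05, edgeR had 9 Ttc genes lower and 6 higher, where 23.7% and 18.1% of all genes were. At an adjusted p of no more than 0.01, the DESeq2 Wald test called 4 lower (Ttc6, Ttc5, Ttc7 and Ttc8) and limma voom with sample quality weights 4 lower (Ttc6, Ttc5, Ttc8 and Ttc29), and each called 1 higher (Ttc41). Over all genes the share called lower was 5.61% with DESeq2 and 4.33% with voom, and the share called higher was 7.58% and 2.33%. The counts of Ttc genes and partners at these limits are to be read against these shares. At an adjusted p of at most 0.05, edgeR called 4 lower, adding Ttc7 and Ttc8 (8.78% of all genes), and 1 higher, Ttc41 (6.15%). The median log2 fold change of the 37 genes was -0.03, with 21 below 0 and 16 above, and that of all genes was -0.05. The median size of the change, without its sign, was 0.27 for the Ttc genes and 0.29 for all genes.

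**Figure D3:**
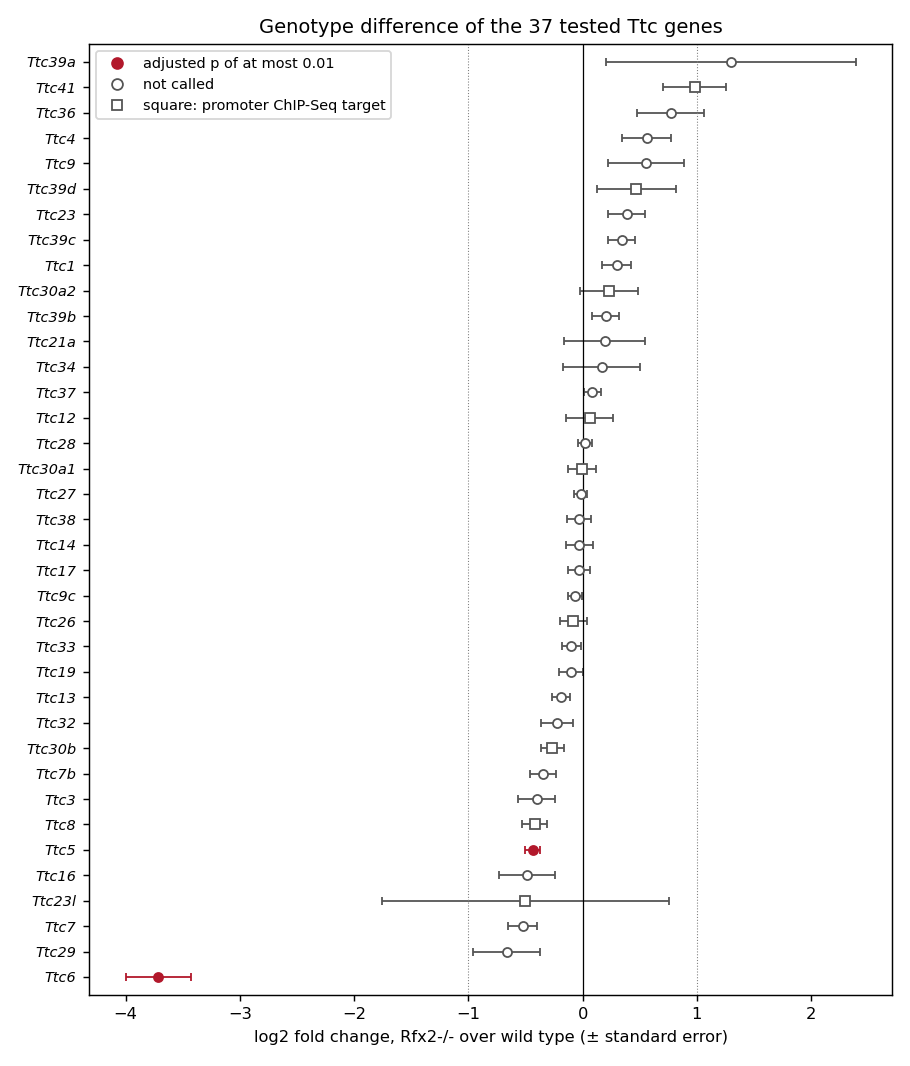
Log2 fold change (Rfx2-/- over wild type, ± standard error from edgeR) of the 37 tested Ttc genes, in order. Filled red symbols are the 2 genes called at an adjusted p of at most 0.01, squares are promoter ChIP-Seq targets, and dotted lines mark 2-fold. Ttc6 stands apart at -3.71, while 35 genes have open symbols.

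Ttc6 (ENSMUSG00000046782, chromosome 12 from 57564113 to 57737928 of GRCm38, plus strand) is among the little described genes. Wild type replicates 1 to 5 had 132, 98.8, 49.0, 99.5 and 42.0 CPM. In the 6 Rfx2-/- mice it ranged from 5.59 to 7.02 CPM, with a median of 6.63. The lowest wild type mouse thus stood well above the highest Rfx2-/- mouse, and the Rfx2-/- values spanned a 1.26-fold range where the wild type values spanned 3.15-fold. Ttc6 fell by 3.71 on the log2 scale (SE 0.286), which is 13.1-fold, with an adjusted p of 4.1e-05 from edgeR. With each of the 11 mice left out in turn, the log2 fold change stayed between -3.87 and -3.49 and Ttc6 was called in each. The remaining signal in Rfx2-/- testis, 121 counts in the mouse with the fewest, was above the 3 counts taken as detected. Of the 46-base windows of its exons, 0.331% were shared with another gene.

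Ttc6 carries no ChIP-Seq mark, and its best window at a spacer of 2 letters matched 7 of the 10 X-box letters. When spacers of 0 to 3 letters were allowed, a window with a spacer of 1 letter matched 8, as did at least 1 window in 34.4% of all promoters. The stretch from the start of the RefSeq promoter to the first annotated exon, chr12:57563865-57564112 on the plus strand, is shown with this window in capitals, because Ttc6 is the gene that changed most. The window was chosen after its values were seen, and it is centred 11 bases before the RefSeq start.
Ttc6: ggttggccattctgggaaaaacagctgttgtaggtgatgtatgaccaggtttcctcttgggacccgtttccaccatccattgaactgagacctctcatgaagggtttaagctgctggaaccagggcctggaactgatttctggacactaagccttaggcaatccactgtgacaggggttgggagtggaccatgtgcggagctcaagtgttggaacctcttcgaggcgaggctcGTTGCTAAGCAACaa

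**Figure D4:**
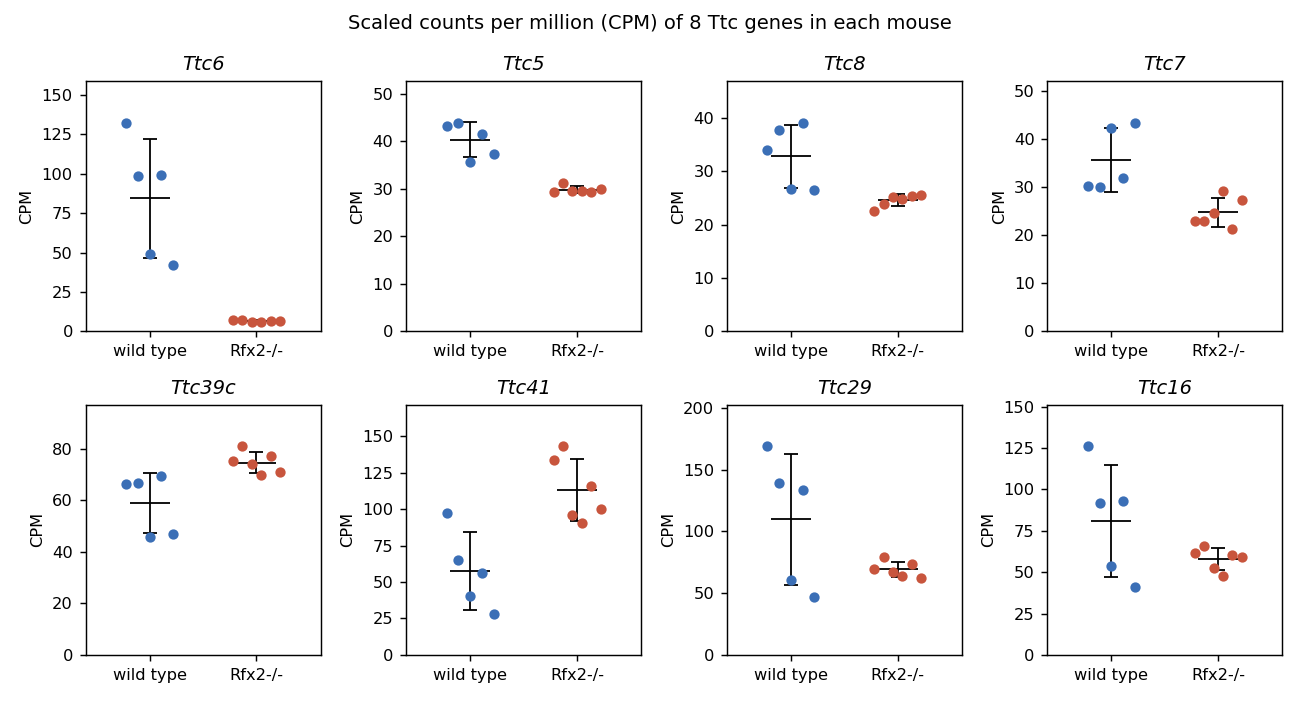
CPM of 8 Ttc genes in each of 5 wild type (blue) and 6 Rfx2-/- (red) mice, with mean and SD as bars and axes from 0. The Rfx2-/- points of Ttc6, Ttc5, Ttc8 and Ttc7 lie below every wild type point, those of Ttc39c lie above, and those of Ttc41, Ttc29 and Ttc16 overlap the wild type range.

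Ttc5 (ENSMUSG00000006288, chromosome 14 from 50765415 to 50785519, minus strand), also called Strap, encodes a cofactor of p300 that also takes part in the decay of tubulin mRNA when free tubulin is plentiful. It had 43.3, 43.9, 35.7, 41.4 and 37.3 CPM in the wild type mice. The Rfx2-/- values ran from 29.2 to 31.2 CPM with a median of 29.6, and all lay below the wild type values. Ttc5 fell by 0.44 on the log2 scale (SE 0.0659, 1.35-fold, adjusted p = 0.00258 from edgeR). The call was lost when Rfx2-/- replicate 9 or 10 was left out (adjusted p = 0.0101 and 0.0102) and held in the other 9 such fits. Of its 46-base windows 11.5% lie in repeats shared with many genes, where only uniquely mapped reads were counted.

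Of the 10 genes for cilium and flagellum, none was called in either direction by edgeR, with 3 lower and 1 higher at an unadjusted p under 0.05 (23.7% and 18.1% of all genes). DESeq2 called 1 of them lower (Ttc8) and voom 2 (Ttc8 and Ttc29). Their median log2 fold change was -0.02. Ttc8 (ENSMUSG00000021013, chromosome 12 from 98920574 to 98983238) encodes BBS8, a subunit of the BBSome. Its wild type values were 34.0, 37.7, 26.7, 39.1 and 26.5 CPM, and its Rfx2-/- values ran from 22.6 to 25.5 CPM with a median of 24.9. The genotypes did not overlap, though the gap between them was 26.5 against 25.5 CPM. The log2 fold change was -0.42 (SE 0.110, adjusted p = 0.0333 from edgeR), and adjusted p lay between 0.0255 and 0.0771 when single mice were left out. Ttc8 was called by DESeq2 (adjusted p = 0.0087), by voom (0.000479) and with total counts as library sizes (0.00281).

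Ttc29 (ENSMUSG00000037101, chromosome 8 from 78213297 to 78394326), whose product belongs to the sperm flagellum, had 169, 139, 60.7, 134 and 46.6 CPM in wild type. In Rfx2-/- mice it had 62.0 to 79.1 CPM with a median of 68.4. Wild type replicates 3 and 5 stood below every Rfx2-/- mouse and the other 3 above every one, so the Rfx2-/- range lay inside that of wild type. The log2 fold change was -0.67 (SE 0.290, adjusted p = 0.109 from edgeR), and voom, which gives less weight to mice far from their group, called it at -0.91 (adjusted p = 0.00328). Wild type values spanned a 3.62-fold range and Rfx2-/- values a 1.28-fold range.

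The genes for subunits of IFT-B, the train that moves towards the tip of the cilium, are Ttc26 (IFT56) and the 3 Ttc30 genes (IFT70), all promoter ChIP-Seq targets. Ttc26 had 98.7, 103, 67.8, 104 and 68.4 CPM in wild type and 80.4 to 86.7 CPM in Rfx2-/- mice (log2 fold change -0.08, SE 0.120, adjusted p = 0.61). Ttc30a2 had 79.0, 70.3, 33.9, 72.6 and 28.1 CPM in wild type and 55.3 to 77.7 CPM in Rfx2-/- mice (0.23, SE 0.256, adjusted p = 0.499). Both genes, which hold the full X-box shown above, had Rfx2-/- values between the wild type extremes. For Ttc30a1 and Ttc30b the log2 fold changes were -0.00 and -0.27 (SE 0.121 and 0.0986, adjusted p = 0.977 and 0.0765). The Ttc30 genes lie side by side on chromosome 2 and share 32.8% (Ttc30a1), 55.4% (Ttc30a2) and 36.7% (Ttc30b) of their 46-base windows with each other, so their separate values are uncertain. With voom the log2 fold change of Ttc30a2 was -0.01.

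The 14 measured partners of Ttc26 and the Ttc30 proteins in IFT-B had 0 genes called lower and 2 called higher by edgeR (0.73% of all genes were called higher), with 1 lower and 7 higher at an unadjusted p under 0.05 (23.7% and 18.1% of all genes). DESeq2 called 0 lower and 3 higher (5.61% and 7.58%), and voom 1 and 3 (4.33% and 2.33%). Ift74 rose from 176 ± 44.0 to 377 ± 36.6 CPM (adjusted p = 0.00182 from edgeR, a log2 fold change of 1.10 with an SE of 0.157), and Ift81 from 90.0 ± 20.3 to 182 ± 25.2 CPM (adjusted p = 0.00258, a change of 1.01 with an SE of 0.153). Their products form the pair that binds tubulin in the IFT-B core. Both were called in all 19 alternatives, and in both the genotypes did not overlap. The Ttc members of the complex gave log2 fold changes between -0.27 and 0.23, none of them called. The 5 IFT-A genes and the 8 genes listed with the BBSome as partners of Ttc8 (Arl6 among them) had no call by edgeR. At an unadjusted p under 0.05 these lists had 0 and 2 genes lower and 2 and 2 higher. DESeq2 called none of these 13, and voom called 2 BBSome genes lower.

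None of the other 4 genes of the role was called. Ttc12, which acts in the assembly of dynein arms in the cytoplasm, had 97.8 ± 34.2 CPM in wild type and 102 ± 9.14 CPM in Rfx2-/- testis. Ttc17, a gene for ciliogenesis, had 34.1 ± 4.64 and 33.3 ± 2.38 CPM, and Ttc21a, a paralog of the IFT-A gene Ttc21b, had 83.1 ± 47.6 and 94.9 ± 30.3 CPM. Ttc23, whose product lies at the ciliary base with the EvC complex, had 38.4 ± 10.6 and 50.1 ± 4.05 CPM (log2 fold change 0.38, SE 0.163, adjusted p = 0.101, the lowest of the 4). Its paralog Ttc23l is described with the round spermatid markers.

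Among the 7 tested chaperone, ubiquitin and transcription cofactors edgeR, DESeq2 and voom each called Ttc5 lower and no other gene. Over all genes these tools called 1.94%, 5.61% and 4.33% lower. At an unadjusted p under 0.05, edgeR had 2 of the 7 lower and 3 higher (23.7% and 18.1% of all genes). The median log2 fold change of the 7 genes was 0.30. Ttc4 had 233, 196, 112, 207 and 95.9 CPM in wild type and 218 to 277 CPM (median 250.4) in Rfx2-/- mice (0.56, SE 0.216, adjusted p = 0.0829), so a single wild type mouse reached the Rfx2-/- range. Ttc1 had 55.1 ± 10.2 and 67.6 ± 7.70 CPM (adjusted p = 0.101). Ttc9 had 29.0 ± 15.9 and 42.5 ± 7.06 CPM (adjusted p = 0.221), and Ttc9c had 29.1 ± 1.21 and 27.7 ± 1.39 CPM (adjusted p = 0.386). Ttc9b was untested at 0 to 6 counts. Ttc3, which encodes a ubiquitin ligase for Akt, had 134 ± 36.3 and 102 ± 12.7 CPM (adjusted p = 0.0899), and Ttc36 had 2.19 ± 0.976 and 3.74 ± 0.800 CPM (adjusted p = 0.0814), with 41.8% of the windows of Ttc36 shared with another gene model.

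The 6 genes placed with RNA, membrane and mitochondrial complexes had no call by edgeR. At an unadjusted p under 0.05 it had 2 lower and 0 higher (23.7% and 18.1% of all genes). DESeq2 called 1 of the 6, Ttc7, lower (5.61% of all genes). Ttc7 and Ttc7b encode alternative subunits of the complex that holds the lipid kinase PI4KA at the plasma membrane. Ttc7 had 30.3, 29.97, 42.3, 31.7 and 43.3 CPM in wild type and 21.3 to 29.2 CPM (median 23.8) in Rfx2-/- mice, without overlap (-0.53, SE 0.128, adjusted p = 0.0271 from edgeR and 0.00332 from DESeq2). Wild type replicates 3 and 5, the highest for Ttc7, also had the highest sums of the 10 Sertoli cell markers, 3974 and 4531 CPM against 2892 to 3632 CPM in the other wild type mice and 2807 to 3326 CPM in Rfx2-/- mice. The part of this in the values of Ttc7 was not tested. Ttc7b had 29.2 ± 4.43 and 23.0 ± 2.62 CPM (-0.35, SE 0.115, adjusted p = 0.0598), and 12.3% of its windows are shared with another gene model. Pi4ka, the kinase itself, rose from 262 ± 19.4 to 326 ± 4.48 CPM (0.31, SE 0.0590, adjusted p = 0.00926), but it was called in only 2 of the 11 fits without a mouse. Of the 5 partners listed for the Ttc7 proteins, only Pi4ka was called by edgeR. At an unadjusted p under 0.05, edgeR had 1 lower and 3 higher (23.7% and 18.1% of all genes). DESeq2 called 0 lower and 2 higher (5.61% and 7.58%), and voom 0 and 1 (4.33% and 2.33%). Of the other partner lists, the SKI complex (3 genes, partners of the RNA decay protein Ttc37) and complex III (11 genes, assembled with Ttc19) had no call by edgeR, DESeq2 or voom, with 0 and 1 lower and 1 and 2 higher at an unadjusted p under 0.05. A list of 49 genes for other TPR proteins, which holds Bbs4 and Ift88 from the lists above as well, had no call by edgeR and a median log2 fold change of 0.04, with 9 lower and 14 higher at that unadjusted p (23.7% and 18.1% of all genes). DESeq2 called 2 of them lower and 6 higher (5.61% and 7.58%), and voom 1 and 3 (4.33% and 2.33%).

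Across roles, the 9 promoter ChIP-Seq targets had no call by edgeR in either direction. At an unadjusted p under 0.05 there were 2 lower and 1 higher, against 23.7% and 18.1% of all genes. DESeq2 (5.61% lower and 7.58% higher over all genes) and voom (4.33% and 2.33%) each called Ttc8 lower and Ttc41 higher. Their log2 fold changes ran from -0.50 to 0.98 with a median of -0.00, and the 28 other tested genes, which include both called genes, had a median of -0.03. Ttc41 (ENSMUSG00000044937, chromosome 10 from 86705811 to 86776844) had 97.7, 65.3, 40.3, 55.9 and 28.1 CPM in wild type and 90.7 to 143 CPM (median 108) in Rfx2-/- mice. Wild type replicate 1 alone reached the Rfx2-/- range. The log2 fold change was 0.98 (SE 0.276, adjusted p = 0.0401 from edgeR), and without wild type replicate 1 it was 1.26 (adjusted p = 0.00861). Ttc39d had 84.8 ± 47.4 and 117 ± 26.9 CPM (0.47, SE 0.348, adjusted p = 0.308).

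Of the 14 tested little described genes edgeR called Ttc6 lower and none higher (1.94% and 0.73% of all genes). At an unadjusted p under 0.05 it had 2 lower and 2 higher (23.7% and 18.1% of all genes). DESeq2 (5.61% lower and 7.58% higher over all genes) and voom (4.33% and 2.33%) each called Ttc6 lower and Ttc41 higher. The median log2 fold change of the 14 genes was -0.02. Ttc13, Ttc27, Ttc32, Ttc33, Ttc34 and Ttc38 lay between -0.23 and 0.17 on that scale. So did Ttc14, Ttc19, Ttc28 and Ttc37 among the genes that were placed here with RNA, membrane and mitochondrial complexes.

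The 4 Ttc39 genes differed in pattern. Ttc39c had 66.4, 66.5, 45.8, 69.3 and 46.8 CPM in wild type and 69.7 to 80.9 CPM (median 74.6) in Rfx2-/- mice. These ranges did not overlap, by a margin of 69.3 against 69.7 CPM (0.34, SE 0.117, adjusted p = 0.0640). Ttc39b, which acts in lipid metabolism through the receptor LXR, had 47.1 ± 8.36 and 54.1 ± 4.44 CPM (adjusted p = 0.196). Ttc39a had 60.6, 16.7, 2.07, 2.63 and 1.76 CPM in wild type and 4.62 to 114 CPM (median 28.9) in Rfx2-/- mice. Its log2 fold change of 1.30 was the highest of the family, but its SE was 1.10 (adjusted p = 0.373). It was 2.83 when wild type replicate 1 was left out (adjusted p = 0.0558) and 0.67 when Rfx2-/- replicate 7 was (adjusted p = 0.671). In all, the genotypes did not overlap in 5 Ttc genes. These were Ttc5, Ttc6, Ttc7 and Ttc8, lower in Rfx2-/- mice (5.2% of all genes), and Ttc39c, higher (6.5% of all genes).

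Single mice differed in the same way in many Ttc genes, as the round spermatid and pachytene markers did. Wild type replicates 3 and 5, which had the lowest sums of pachytene markers (3752 and 3581 CPM against 7152 to 8118), stood below the other 3 wild type mice in 23 of the 37 genes and above them in 7, where 36.1% and 31.1% of all genes did so. This split was chosen after the values were seen. Ttc29, Ttc6, Ttc41 and Ttc4 were among the 23, and Ttc7 and Ttc3 among the 7. The ratio of the highest to the lowest mouse was wider in wild type than in Rfx2-/- testis in 34 of the 37 genes, as in 77.9% of all genes. It passed 3-fold in 10 Ttc genes in wild type and in 2, Ttc23l and Ttc39a, in Rfx2-/- testis, against 14.6% and 9.62% of all genes. Ttc16, little described, was another of the 10, with 126, 91.7, 53.8, 92.7 and 40.7 CPM in wild type and 47.7 to 65.6 CPM in Rfx2-/- mice (log2 fold change -0.49, adjusted p = 0.149 from edgeR).

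The 3 genes Ttc21a, Ttc23l and Ttc39a put the mice in the same order as the score of round spermatid markers (their mean log2 CPM) within both genotypes, as 1.79% of all genes did. In replicate order this score was 5.38, 2.98, 0.19, 0.42 and -1.03 in wild type and 4.06, 5.59, 0.92, 0.94, 3.07 and 2.37 in Rfx2-/- mice. Ttc23l had 41.9, 13.5, 1.14, 1.47 and 0.189 CPM in wild type and 10.3, 29.4, 0.601, 0.711, 5.17 and 3.004 CPM in Rfx2-/- mice. The mice of highest score thus had the most Ttc23l, which spanned a 222-fold range in wild type. Its log2 fold change was -0.50 with an SE of 1.26 (adjusted p = 0.768), and it became 1.01 when wild type replicate 1 was left out and -1.55 when Rfx2-/- replicate 7 was. With the score as a covariate in edgeR it was -1.16 with an SE of 0.230 (adjusted p = 0.00662). Under the same covariate Ttc39a was 0.84 (adjusted p = 0.0203) and Ttc41 0.82 (adjusted p = 0.000797). The fit with the covariate called 727 of 15745 genes lower and 418 higher, against 305 and 115 without it. Among the 19 alternatives Ttc23l was called in this fit alone, whereas Ttc41 was also called higher by DESeq2, by voom and without wild type replicate 1. The score and these genes come from the same libraries.

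**Figure D5:**
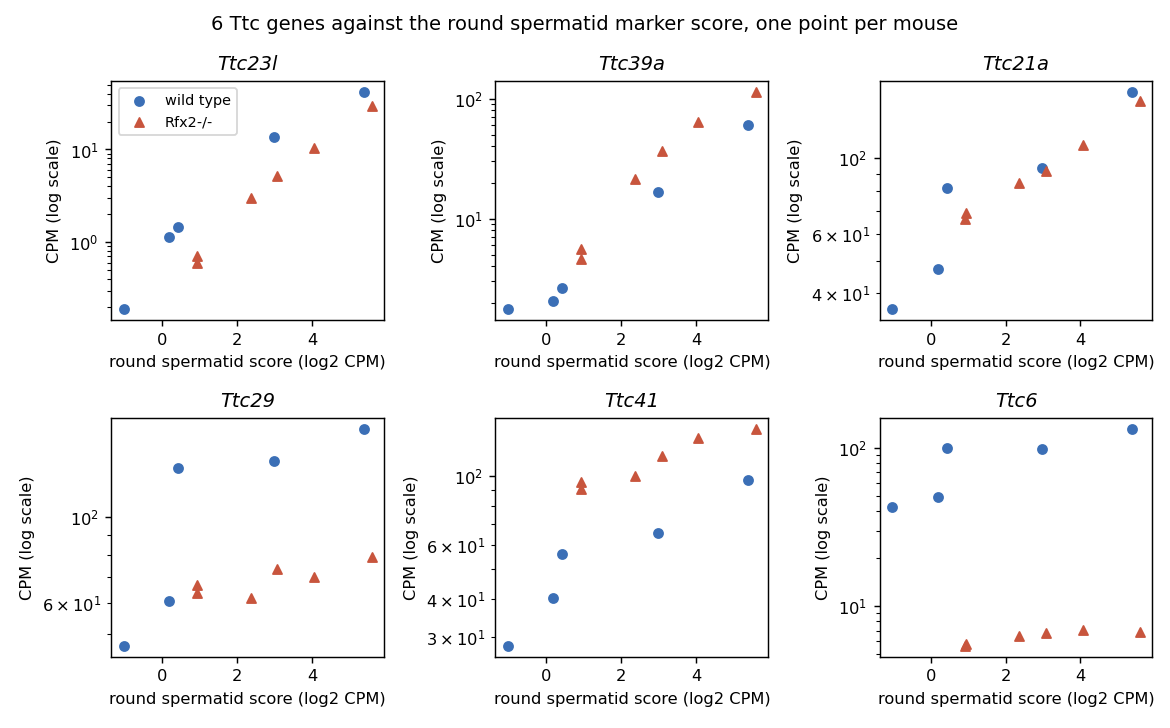
CPM (log scale) of 6 Ttc genes against the round spermatid score (mean log2 CPM of 13 markers), with a circle for each wild type and a triangle for each Rfx2-/- mouse. Ttc23l, Ttc39a and Ttc21a follow the order of the score in both genotypes, the Rfx2-/- triangles of Ttc6 lie far below the circles at every score, and those of Ttc41 lie above circles of a like score.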

How the data were processed

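Testis RNA of 5 wild type and 6 Rfx2-/- mice was analysed at postnatal day 21, without the mice of another age. The authors mapped single reads of TruSeq libraries to GRCm38 and counted reads with 1 position on merged exons of protein-coding isoforms, leaving out reads on exons of different genes. The submitters' processing notes name CASAVA 1.8.2, STAR 2.4 and featureCounts 1.4.6. The deposited values are raw counts for 23074 genes, without normalization. Whether counting used strand is not given in the sources used here.

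Genotypes were compared by edgeR 4.0.16 in R 4.3.3 (filterByExpr, TMM, glmQLFit, glmQLFTest, no covariates) and Benjamini-Hochberg adjustment over all genes tested. Alternatives were DESeq2 1.42.0 (Wald test, and its size factors in edgeR), voom of limma 3.58.1, total counts, a robust prior, 2 other filters on low counts, an adjusted p of 0.05, the round spermatid score (prior count 2) as covariate, and each mouse left out in turn. Mice are separate animals without shared replicate numbers. Names, exons and positions came from GENCODE vM21, and promoters from RefSeq for GRCm38.p6. Shared sequence was counted in windows of 46 bases. Genes were named when called, when past 2-fold, when ChIP-Seq targets, when in the cilium and flagellum role, when among the 5 highest wild type levels, or when among the Ttc7, Ttc9, Ttc23, Ttc30 or Ttc39 genes. Ttc3, Ttc13, Ttc14, Ttc16, Ttc19, Ttc22, Ttc24, Ttc28, Ttc32, Ttc33, Ttc34, Ttc36, Ttc37 and Ttc38 lie outside this rule and were named after their values were seen. Members, roles, partner lists and markers were chosen with earlier results of these data known. The fit was also run on simulated counts, drawn separately for each gene and mouse. These lack the marker differences between mice seen here, so that run does not bear on the calls. Figures were drawn in Python 3.11.15 with matplotlib 3.10.9.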

Additional observations from a re-analysis of the deposited data

Results flagged for a closer look

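In 5 of 74 groups of values (37 genes in 2 genotypes), a single mouse stood apart from the rest of its genotype by Dixon's 95% limit on the gap to its nearest neighbour. Chance alone flags about 1 in 20 groups. Ttc39a had 60.6 CPM in wild type replicate 1 against 1.76 to 16.7 CPM in the other wild type mice. Ttc23l had 29.4 CPM in Rfx2-/- replicate 7 against 0.601 to 10.3 CPM in the others. These were the mice with the highest round spermatid score of their genotype. Rfx2-/- replicate 7 was also the highest for Ttc37, with 35.0 CPM against 28.9 to 29.8, and for Ttc5, with 31.2 CPM against 29.2 to 29.8. For Ttc5 even this mouse lay below the lowest wild type value of 35.7 CPM. Ttc30a1 had 60.2 CPM in Rfx2-/- replicate 8 against 47.7 to 51.9 CPM, a gene that shares much sequence with Ttc30a2 and Ttc30b.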

How the results depend on the processing

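Ttc6 was called lower in all 19 alternatives, and no Ttc gene called by edgeR changed sign in any of them. With total counts as library sizes, the median log2 change over all genes went from -0.05 to -0.22. The 2 Ttc genes called lower became 4 with the DESeq2 Wald test, 4 with voom and 4 at a limit of 0.05 for the adjusted p. They became 3 with total counts as library sizes, where Ttc8 was added, and 1 to 2 with single mice left out. With the round spermatid covariate Ttc23l was added to those called lower. The 0 called higher became 1 with DESeq2, voom, the round spermatid covariate and the limit of 0.05, and 0 to 1 with single mice left out. Past 2-fold, the 1 gene lower became 2 with the covariate, and the 0 higher became 1 with DESeq2 and 0 to 1 with single mice left out, where Ttc41 passed without wild type replicate 1. The partner lists, with 0 genes lower and 3 higher, had 3 lower with total counts, 2 with DESeq2, 4 with voom, 1 with the covariate and 3 at the limit of 0.05, and 11 higher with DESeq2, 7 with voom, 5 with the covariate and 11 at the limit of 0.05. Calls over all genes shifted too: the 305 lower and 115 higher became 727 and 418 with the covariate. With total counts as library sizes they became 434 and 97. With single mice left out, 184 to 393 genes were called lower and 45 to 192 higher. The cause of these shifts was not tested. At least 9 of 10 X-box letters were matched in 4 genes and at least 8 in 11. Of the 740 values of single genes under the alternatives, 725 kept their side of the threshold. No paired analysis was possible because the genotypes share no replicate numbers. The depth limits Ttc22, Ttc24 and Ttc9b, which were too low to test.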
